A study of Homo sapiens with 6 samples.

Results

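The matrix metalloproteinases (MMP), the ADAM and ADAMTS proteases, the ADAMTS-like proteins (ADAMTSL) and their tissue inhibitors (TIMP) were followed in ARPE-19 cells after knockdown of EIF1. These families were chosen with earlier results of these data known. Within them, genes were taken by symbol and gene type alone. The symbol had to be MMP, ADAM, ADAMTS, ADAMTSL or TIMP with its number, and the gene type protein-coding in the count table. This gave 63 members of the 30618 genes in the table, namely 19 MMPs, 17 ADAMs, 19 ADAMTS, 4 ADAMTSL and 4 TIMPs. ARPE-19 cells are a human line from the retinal pigment epithelium, the layer that nourishes the photoreceptors. RNA-seq was done on 3 libraries of cells that received a control siRNA (NC) and 3 libraries of cells that received an siRNA against EIF1 (siEIF1), a translation initiation factor that guides selection of the start codon. Both groups were held in 50 mM glucose, an in vitro model of diabetic retinopathy, so the comparison is of EIF1 knockdown within high glucose. None of the 6 libraries was from normal glucose or an osmotic control. Knockdown was by transient transfection, and the same 1 cell line stands behind all 6 libraries. RNA was measured in bulk, so less RNA per cell and fewer cells that express a gene cannot be told apart.

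MMPs, ADAMs and ADAMTS proteases share a catalytic site that holds a zinc ion. MMPs are made as inactive precursors and cleave collagens, other matrix proteins and cell surface proteins, some as secreted enzymes and some while bound to the membrane. ADAMs are membrane proteins that shed the outer parts of other membrane proteins, such as growth factors, cytokines and Notch receptors, and several ADAMs have lost the zinc-binding residues and act in adhesion. ADAMTS proteases are secreted and cut proteoglycans, procollagens and other matrix proteins, while ADAMTSL proteins resemble them without the protease domain and bind the matrix. TIMPs block MMPs, and TIMP3 also blocks several ADAMs and ADAMTS proteases. The retinal pigment epithelium secretes TIMP3 into Bruch's membrane beneath it, and mutations of TIMP3 cause an inherited macular disease, Sorsby fundus dystrophy.

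The libraries held from 26499929 to 31431479 counts, and each siEIF1 library was deeper than each NC library, which the scaling for library size takes into account. EIF1 itself had 286 ± 7.60 FPKM (fragments scaled by a length for each gene and by library depth) in NC libraries and 23.5 ± 0.80 FPKM after its knockdown (SD, n = 3). Of 16 retinal pigment epithelium markers, 13 were in the count file and 11 had enough counts to be tested, with mean counts from 27.8 to 38742. Among these MITF, OTX2, BEST1, KRT8 and KRT18 were well expressed. TYR and TYRP1, the pigment enzymes, had mean counts of 0.667 and 7.0. Of the 11 tested markers 3 rose, KRT8, KRT18 and RLBP1, and 0 fell in edgeR, which is 27.3% called against 20.6% of all tested genes. Past a fold change of 2, 1 marker rose, or 9.09%, against 1.71% of all tested genes in either direction. At an unadjusted p under 0.05, 1 was lower in edgeR, BEST1, and 0 in DESeq2. Of 10 markers of other cell types, 2 were tested, CD68 and PDGFRB, and PDGFRB rose from 8.15 to 12.2 FPKM (log2 fold change 0.60, standard error 0.110, edgeR adjusted p = 0.00176). The endothelial markers PECAM1 and CDH5 had mean counts of 0.333 each. The part of PDGFRB in the results was not tested.

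Inhibitors and a single membrane-bound protease had the highest FPKM of the families. TIMP2 was highest with a mean of 107 over the 6 libraries, followed by MMP14 with 105, TIMP1 with 101, TIMP3 with 51.8 and ADAM15 with 43.1. The length behind the deposited FPKM is not given in the sources used here, and the order of genes and their family shares depend on it. ADAM9 and TIMP3 had mean counts of 7740 and 8440 and canonical transcripts of 4112 and 4597 bases in GENCODE release 44, yet 12.3 and 51.8 FPKM. The ranges of TIMP2, MMP14 and TIMP1 overlapped, so their order is within the spread of the libraries. MMP15 (20.7), ADAM9 (12.3), ADAMTSL4 (11.9), MMP2 (9.31) and MMP24 (9.16) came next. MMP14, the collagenase MT1-MMP at the cell surface, made up between 65.8% and 75.3% of the summed FPKM of the MMP family in each library. ADAM15 made up between 57.8% and 66.7% of the summed FPKM of the ADAM family. The filter on low counts kept 44 of the 63 members, and 19 had too few counts to be tested.

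**Figure D1:**
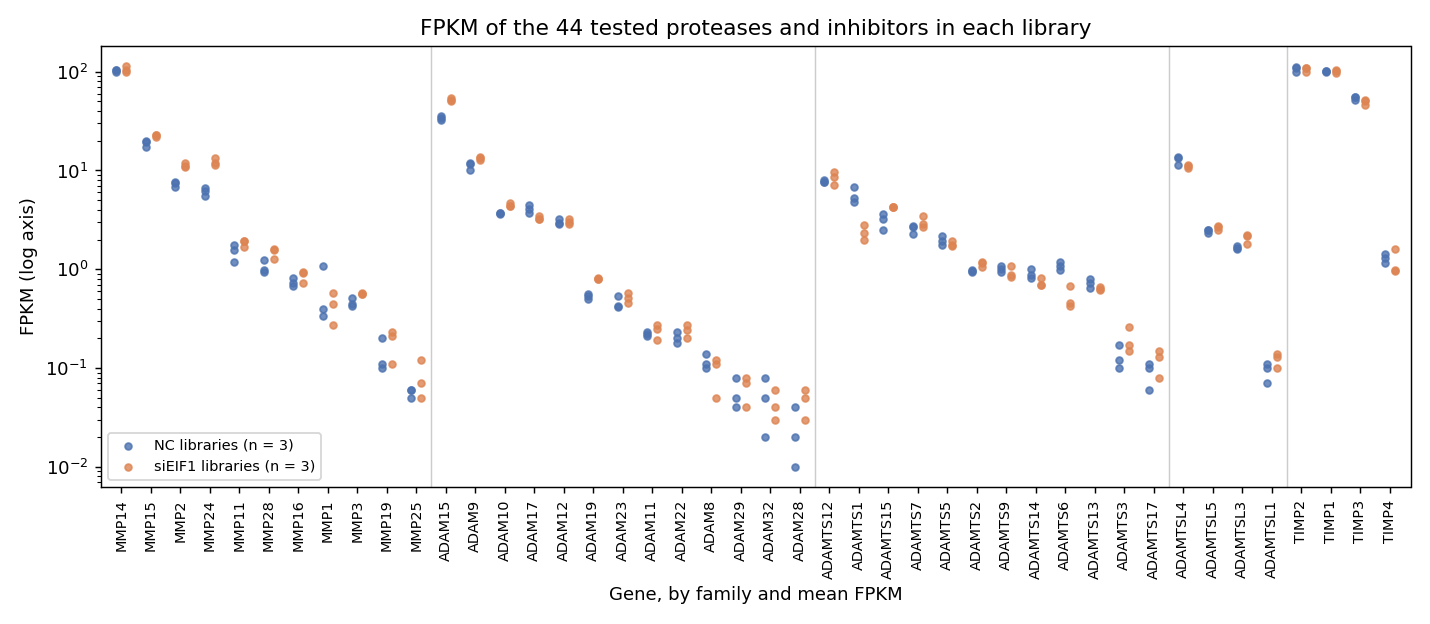
FPKM on a log axis (vertical) of the 44 tested members (horizontal, by family and mean FPKM), with 1 point for each NC library and each siEIF1 library. TIMP2, MMP14 and TIMP1 sit near 100, and the points of the groups separate for MMP24, MMP2, ADAM15, ADAMTS1 and ADAMTS6.

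After EIF1 knockdown, 11 of the 44 tested members rose and 4 fell at an adjusted p under 0.05, where p-values came from the quasi-likelihood test of edgeR and were adjusted after Benjamini and Hochberg over all 16749 tested genes. The 11 that rose were MMP24, MMP2, MMP28, MMP15, ADAM15, ADAM19, ADAM10, ADAM9, ADAMTS15, ADAMTSL3 and ADAMTS2, and the 4 that fell were ADAMTS1, ADAMTS6, ADAM17 and ADAMTSL4. The share called was 34.1%, against 20.6% of all tested genes. The members that rose were 25% of those tested against 10.2% of all genes, and those that fell were 9.09% against 10.4%. With the further limit of a fold change above 2 or below 0.5, 3 members passed, MMP24 upwards and ADAMTS1 and ADAMTS6 downwards, which is 6.82% against 1.71% of all tested genes. Of all tested genes, 0.4% passed this limit upwards and 1.31% downwards. The number of members past the limit was 1 when NC replicate 1 was left out and 1 when siEIF1 replicate 2 was left out. Among all tested genes, 235 and 251 passed it in these fits, against 286 with all libraries. The median log2 fold change of the tested members was 0.21, with 31 positive and 13 negative values, against 0.0033 over all tested genes. It was 0.13 without siEIF1 replicate 3. These shares and medians describe the members and were not tested against other genes. On CPM (counts scaled by library depth), every siEIF1 library lay on one side of all NC libraries in 17 members, or 38.6%, close to the 37.1% of all tested genes.

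**Figure D2:**
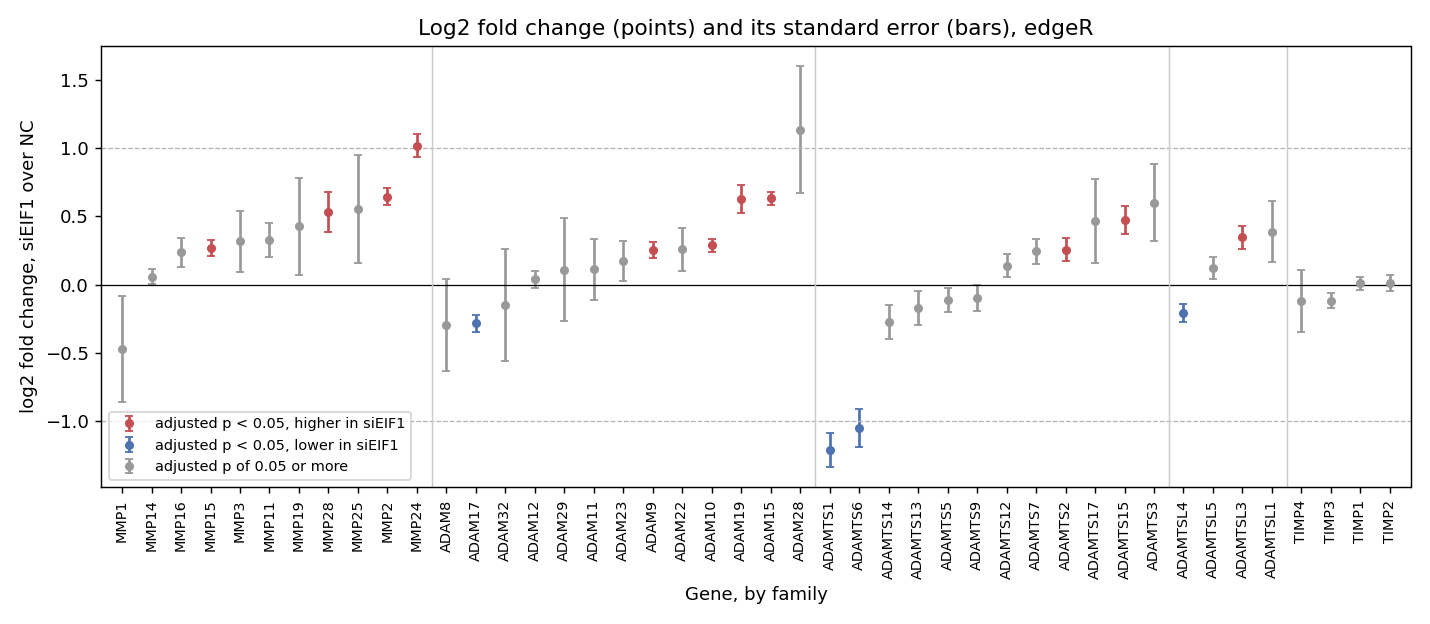
Log2 fold change of siEIF1 over NC (vertical) with its standard error (bars) for each of the 44 tested members (horizontal, by family), with red and blue for an adjusted p under 0.05 and dashed lines at a fold change of 2 in either direction. MMP24, ADAMTS1 and ADAMTS6 lie past the dashed lines with an adjusted p under 0.05, and all 4 TIMPs lie near 0.

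MMP24, or MT5-MMP, is a membrane-bound MMP known mainly from neurons, where it cleaves N-cadherin and the amyloid precursor protein, and it was the member with the largest called rise. The study also measured MMP24 by RT-qPCR on other biological replicates and reports a change there that matched its RNA-seq data. MMP24 was picked on these libraries and is given here for its locus and context. Its FPKM was 5.50, 6.71 and 6.13 in NC replicates 1 to 3 and 11.95, 13.41 and 11.29 in siEIF1 replicates 1 to 3. Every siEIF1 library lay far above every NC library. The fold change was 2.03 with a 95% confidence interval from 1.78 to 2.30, so the interval spans the limit of 2 (log2 fold change 1.02, standard error 0.086, edgeR adjusted p = 3.49e-06). Leaving out NC replicate 1 gave 0.95 and leaving out siEIF1 replicate 2 gave 0.93 on the log2 scale, both within that limit. MMP24 grew from 4.36% ± 0.43 to 7.77% ± 0.843 of the summed FPKM of the MMP family (SD, n = 3).

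MMP24 (ENSG00000125966.10) lies on the forward strand of chromosome 20 of GRCh38, at chr20:35226690-35276998, and its canonical transcript in GENCODE release 44 has 9 exons and 4376 bases. The primers that the study used for MMP24 are shown because they mark the bases of this gene that its RT-qPCR reads, which a gene on the other strand shares.
MMP24 forward primer: cctagaggcttccaatctcaga
MMP24 reverse primer: atgtgactgacactgaaatgct
Both are written 5′ to 3′. The forward primer matches chr20:35276780-35276801 on the forward strand and the reverse primer matches chr20:35276913-35276934 on the reverse strand. Both sites lie in the untranslated part of exon 9, the last exon, and they span 155 bases. The same bases also lie in an exon of MMP24OS, a gene on the opposite strand, which shares 806 exonic bases with MMP24, or 18.4% of the exonic bases of MMP24. In the counts, MMP24OS stood at 15.11, 17 and 15.94 FPKM in NC libraries and at 18.47, 18.47 and 15.89 FPKM in siEIF1 libraries. Its groups overlapped, and its log2 fold change was 0.16 (standard error 0.071, edgeR adjusted p = 0.142), against 1.02 for MMP24. The libraries keep the strand, but the strand setting of the counting is not given in the sources used here, and how reads in the shared bases were assigned was not tested.

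The other MMPs that rose were a gelatinase, a membrane-bound enzyme and a secreted one of low level. MMP2, gelatinase A, degrades type IV collagen of basement membranes and is activated at the cell surface by MMP14 in a complex with TIMP2. Its FPKM was 6.83, 7.43 and 7.71 in the NC and 11.85, 11.22 and 10.81 in the siEIF1 libraries, with no overlap and a gap wider than the spread within either group. The log2 fold change of MMP2 was 0.65 (standard error 0.061, edgeR adjusted p = 1.0e-05). MMP15, or MT2-MMP, rose from 17.09, 20.10 and 19.45 to 21.91, 22.70 and 22.70 FPKM (log2 fold change 0.27, standard error 0.060). MMP28, epilysin, a secreted enzyme, went from 0.93, 0.98 and 1.23 to 1.61, 1.58 and 1.28 FPKM (log2 fold change 0.53, standard error 0.147), and the siEIF1 replicate with the lowest level stood only just above the highest NC replicate. MMP28 missed the threshold without NC replicate 1, without NC replicate 2, and without siEIF1 replicate 1 or 2, with adjusted p-values in those fits up to 0.0934.

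MMP14 did not move with the group. Its FPKM was 104.17, 100.34 and 105.04 in the NC and 99.29, 104.35 and 114.28 in the siEIF1 libraries, which overlapped. The 95% confidence interval of its fold change ran from 0.961 to 1.13. Of the 7 membrane-bound MMPs, 5 were tested and 2 rose, and of the 12 secreted MMPs that were counted, 6 were tested and 2 rose, which is 40% and 33.3% against 10.2% of all tested genes. No MMP of the 11 tested fell in edgeR, against 10.4% of all tested genes, also 0 at an unadjusted p under 0.05 and 0 in DESeq2. A positive log2 fold change was seen in 10 of the 11. MMP11, stromelysin-3, which furin activates inside the cell, had a fitted log2 change of 0.33 (standard error 0.127, edgeR adjusted p = 0.0911) and MMP16, or MT3-MMP, of 0.24 (standard error 0.105, edgeR adjusted p = 0.135). MMP1, the interstitial collagenase, had counts of 95, 38 and 32 in the NC and 46, 27 and 57 in the siEIF1 libraries, so NC replicate 1 alone set its higher NC mean. These last members were named after their values were seen.

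Several classical secreted MMPs were hardly counted at all. MMP1, MMP3, MMP7, MMP10 and MMP12 lie together on chromosome 11 between positions 102520508 and 102874982 of GRCh38. Of these 5 neighbours, MMP1 and MMP3 were tested, with mean counts of 49.2 and 33.7, while MMP7 had 15, MMP10 had 2 and MMP12 had 1 count over all 6 libraries. MMP9, gelatinase B, had counts of 1, 2 and 0 in the NC and 1, 2 and 3 in the siEIF1 libraries. MMP17, MMP21, MMP23B and MMP26 had 25, 18, 4 and 1 counts in total. At this depth a change of these members could not be detected.

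ADAM15, metargidin, an ADAM that also binds integrins, was the most expressed ADAM and the one with the firmest rise. Its FPKM was 34.19, 32.59 and 35.44 in the NC and 51.23, 50.65 and 54.22 in the siEIF1 libraries. The groups lay far apart compared with the spread within each, and the log2 fold change was 0.63 (standard error 0.047, edgeR adjusted p = 1.41e-06), a fold change of 1.55. ADAM19, meltrin beta, which sheds neuregulin, rose by a like factor at a far lower level, from 0.53, 0.50 and 0.56 to 0.80, 0.80 and 0.82 FPKM (log2 fold change 0.63, standard error 0.104). ADAM9, a broadly acting sheddase whose loss causes a cone-rod dystrophy, rose from 10.14, 11.76 and 11.91 to 13.22, 12.70 and 13.84 FPKM (log2 fold change 0.25, standard error 0.059, edgeR adjusted p = 0.00857). The rise of ADAM9 missed the threshold with limma on log2(FPKM + 1) (adjusted p = 0.0573) and on log2(FPKM + 0.1) (adjusted p = 0.0549). ADAM9 lies on chromosome 8 from 38996754 to 39105445, directly before ADAM32, which starts at 39106990. ADAM32 had a mean count of 16.2 and a fitted log2 change of -0.15 (standard error 0.411, edgeR adjusted p = 0.846).

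The main sheddases ADAM10 and ADAM17 moved in opposite directions by about the same amount. ADAM10 cleaves Notch receptors and is the alpha-secretase of the amyloid precursor protein, and its FPKM was 3.75, 3.69 and 3.65 in the NC and 4.37, 4.35 and 4.63 in the siEIF1 libraries (log2 fold change 0.29, standard error 0.047, edgeR adjusted p = 7.61e-04). ADAM17, which releases tumor necrosis factor and ligands of the EGF receptor, had 4.42, 3.73 and 4.08 in the NC and 3.21, 3.22 and 3.48 in the siEIF1 libraries (log2 fold change -0.28, standard error 0.064, edgeR adjusted p = 0.00655). Neither pair of groups overlapped. The ratio of ADAM10 to ADAM17 FPKM was 0.848, 0.989 and 0.895 in the NC libraries. In the siEIF1 libraries it was 1.36, 1.35 and 1.33, without overlap. Which of these 2 genes was higher within a group depends on the length used for FPKM. In counts, which are not scaled by length, ADAM10 exceeded ADAM17 in every NC library as well (1948, 2065 and 1987 against 1541, 1403 and 1490). ADAM17 shares 1645 exonic bases, 10.3% of its own, with IAH1 on the opposite strand, and IAH1 had a fitted log2 change of 0.030 (standard error 0.074, edgeR adjusted p = 0.820).

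The ADAMs were also split by structure, with earlier results of these data known. Of the 11 that keep the zinc-binding site 8 were tested, and 4 rose and 1 fell, or 62.5% against 20.6% of all tested genes. Of the 6 that lack the site, 5 were tested and 0 were called in edgeR, also 0 at an unadjusted p under 0.05 and 0 in DESeq2 (ADAM11, ADAM22, ADAM23, ADAM29 and ADAM32). These 5 had mean counts from 12.7 to 110.2, against up to 10152.5 for the others, so depth and structure cannot be told apart. The largest log2 fold change of any tested member, named after its value was seen, was that of ADAM28, at 1.14 with a standard error of 0.465 and an edgeR adjusted p of 0.106. It rested on counts of 11, 4 and 5 in the NC and 10, 17 and 21 in the siEIF1 libraries, which overlapped. ADAM12, meltrin alpha, had 3.01 ± 0.157 FPKM in the NC and 3.06 ± 0.188 in the siEIF1 libraries (SD, n = 3). ADAM20, ADAM21, ADAM18 and ADAM33 were not tested, with 24, 41, 1 and 2 counts in all.

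**Figure D3:**
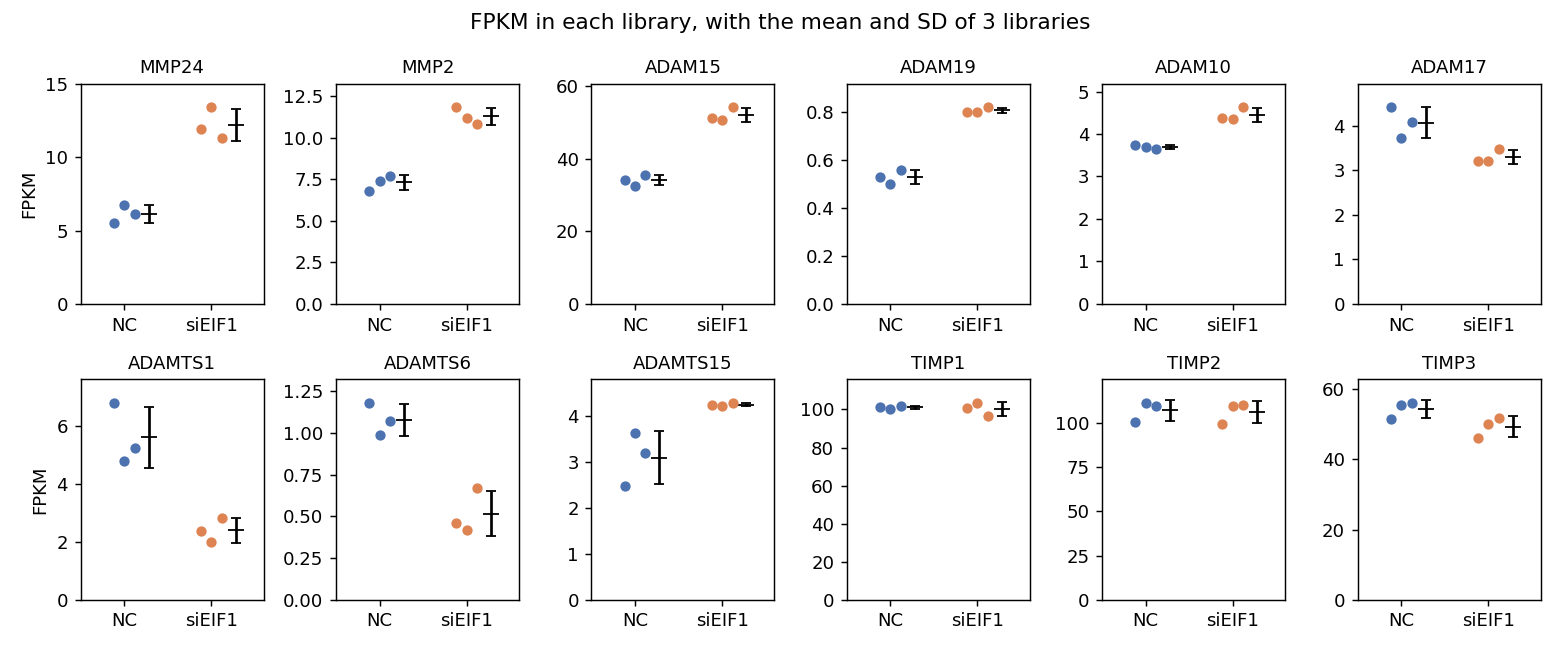
FPKM (vertical, from 0) in each NC and siEIF1 library (points) with the mean and SD of 3 libraries (black bars) for 12 members. MMP24, MMP2, ADAM15, ADAM19, ADAM10 and ADAMTS15 are higher and ADAM17, ADAMTS1 and ADAMTS6 lower in every siEIF1 library, while the groups of TIMP1, TIMP2 and TIMP3 overlap.

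The ADAMTS family held the largest falls. ADAMTS1 cleaves the proteoglycans versican and aggrecan and binds vascular endothelial growth factor. Its FPKM was 6.78, 4.78 and 5.24 in the NC and 2.35, 1.99 and 2.82 in the siEIF1 libraries, so even the lowest NC library was well above the highest siEIF1 library. The log2 fold change was -1.21 (standard error 0.124, edgeR adjusted p = 1.93e-05), a fold change of 0.432. NC replicate 1 was the highest, and without it the log2 fold change was -1.05. The share of ADAMTS1 in the summed FPKM of the ADAMTS family went from 21.6% ± 4.03 to 9.85% ± 1.27 (SD, n = 3). ADAMTS5, the aggrecanase next to ADAMTS1 on chromosome 21, did not follow it. ADAMTS1 lies from 26835755 to 26845409 and ADAMTS5 from 26917922 to 26967088, both on the reverse strand, and ADAMTS5 had 1.77, 2.18 and 1.93 FPKM in the NC and 1.75, 1.91 and 1.70 in the siEIF1 libraries (log2 fold change -0.11, standard error 0.087, edgeR adjusted p = 0.407).

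ADAMTS6, a protease linked to fibrillin microfibrils, fell from 1.18, 0.99 and 1.07 to 0.46, 0.42 and 0.67 FPKM. The groups did not overlap, and siEIF1 replicate 3 kept the highest level of its group. The log2 fold change was -1.05 (standard error 0.141, edgeR adjusted p = 1.84e-04), and it lay within the fold limit of 2 without NC replicate 1, at -0.98, without siEIF1 replicate 1, at -0.967, and without siEIF1 replicate 2, at -0.94. ADAMTS15, a proteoglycan-cleaving relative of ADAMTS1, rose instead, from 2.48, 3.63 and 3.19 to 4.25, 4.22 and 4.29 FPKM (log2 fold change 0.48, standard error 0.104, edgeR adjusted p = 0.00557). Its siEIF1 libraries lay very close together, while the NC libraries were spread widely with replicate 1 lowest. ADAMTS8, its neighbour on chromosome 11, had 3 counts over the 6 libraries.

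Among the procollagen enzymes ADAMTS2, ADAMTS3 and ADAMTS14, which remove the amino-terminal propeptides of fibrillar collagens, ADAMTS2 rose slightly, from 0.94, 0.96 and 0.99 to 1.06, 1.17 and 1.18 FPKM (log2 fold change 0.26, standard error 0.083, edgeR adjusted p = 0.0433). With DESeq2 its adjusted p was 0.104, and it missed the threshold in 9 of 14 alternative fits. ADAMTS3 had a fitted log2 change of 0.60 (standard error 0.281, edgeR adjusted p = 0.160) and ADAMTS14 of -0.27 (standard error 0.125, edgeR adjusted p = 0.145). ADAMTS12, which with ADAMTS7 cleaves the cartilage protein COMP, was the most expressed ADAMTS, with 7.61, 7.61 and 8.03 FPKM in the NC and 7.05, 8.52 and 9.69 in the siEIF1 libraries (log2 fold change 0.14, standard error 0.083, edgeR adjusted p = 0.280). Its siEIF1 libraries spanned the whole NC range, and without siEIF1 replicate 1, the lowest, the log2 fold change was 0.25 with an edgeR adjusted p of 0.00672. ADAMTS7 had a fitted log2 change of 0.25 (standard error 0.091, edgeR adjusted p = 0.0763). The members without enough counts were ADAMTS4, ADAMTS8, ADAMTS10, ADAMTS16, ADAMTS18, ADAMTS19 and ADAMTS20, with 1 to 28 counts in total. Of the 10 counts of ADAMTS4, 9 came from NC replicate 2.

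Of the 4 ADAMTS-like genes 1 rose and 1 fell, or 50% called against 20.6% of all tested genes. ADAMTSL3, punctin-2, rose from 1.7, 1.64 and 1.6 to 1.80, 2.16 and 2.24 FPKM (log2 fold change 0.35, standard error 0.084, edgeR adjusted p = 0.00981), with siEIF1 replicate 1 just above the NC range. It missed the threshold without NC replicate 3 (edgeR adjusted p = 0.0503) and without siEIF1 replicate 2 (edgeR adjusted p = 0.0560), and with limma on both FPKM scales (adjusted p = 0.079 and 0.0772). ADAMTSL4 helps to assemble fibrillin microfibrils, and its mutations displace the lens of the eye. It had 11.38, 13.65 and 13.50 FPKM in the NC and 10.48, 11.18 and 11.26 in the siEIF1 libraries (log2 fold change -0.21, standard error 0.067, edgeR adjusted p = 0.0428). The FPKM groups did not overlap, but on the scaled counts they did, with NC replicate 1 as low as the siEIF1 libraries. Its call was lost without NC replicate 2 or 3 and without any 1 of the siEIF1 libraries, and with limma on both FPKM scales (adjusted p = 0.0871 and 0.0831). ADAMTSL4 shares 736 exonic bases, 11.4% of its own, with ADAMTSL4-AS1 on the opposite strand, which had 99 to 204 counts per library. How reads in these bases were assigned was not tested. ADAMTSL5 had 2.44 ± 0.0889 FPKM in the NC and 2.62 ± 0.108 in the siEIF1 libraries (SD, n = 3), and ADAMTSL1 had a mean count of 51.5 with a fitted log2 change of 0.39 (standard error 0.226, edgeR adjusted p = 0.260).

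None of the 4 TIMPs was called by edgeR in the main fit, and 0 were called by DESeq2 or by limma on either FPKM scale. Over all tested genes, edgeR called 20.6%, DESeq2 18.2% and limma 15% and 15.2%, so a count of 0 among 4 genes says little by itself. At an unadjusted p under 0.05, 0 TIMPs were lower in edgeR, while 1 was lower in DESeq2 and 1 in each limma fit, namely TIMP3. TIMP1 had 101.27, 100.02 and 101.89 FPKM in the NC and 100.77, 103.41 and 96.39 in the siEIF1 libraries, and TIMP2 had 100.46, 111.39 and 109.70 and then 99.37, 109.83 and 110.15. Both pairs of groups overlapped almost fully. The 95% confidence interval of the fold change was 0.933 to 1.08 for TIMP1 and 0.921 to 1.10 for TIMP2, so changes beyond these bounds lie outside the intervals. TIMP3 had 51.41, 55.43 and 56.09 FPKM in the NC and 46.14, 50.03 and 51.95 in the siEIF1 libraries, with a slight overlap, and its fold change of 0.922 had an interval from 0.849 to 1.001 (edgeR adjusted p = 0.161). TIMP4 was far less abundant, with a mean count of 52.2, and its wider interval ran from 0.656 to 1.29. TIMP4 made up at most 0.615% of the summed TIMP FPKM.

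Set against these inhibitors, the ratio of MMP2 to TIMP2 FPKM was 0.0680, 0.0667 and 0.0703 in the NC and 0.119, 0.102 and 0.0981 in the siEIF1 libraries, without overlap. The ratio of MMP14 to TIMP2 was 0.965 ± 0.0684 and 0.996 ± 0.0438 (SD, n = 3), with overlap. The summed FPKM of the ADAM family was 57.9 ± 1.76 in the NC and 78.2 ± 3.11 in the siEIF1 libraries, and that of the MMP family was 140.2 ± 2.50 and 157.5 ± 6.81 (SD, n = 3). The sums of the TIMP family (263.9 ± 8.04 and 257.2 ± 8.87) and of the ADAMTS family (25.9 ± 0.286 and 24.2 ± 2.21) overlapped between the groups (SD, n = 3). These sums and ratios are descriptions of RNA levels and were not tested. They do not measure enzyme activity, which also depends on activation, secretion and inhibition of the proteins.

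**Figure D4:**
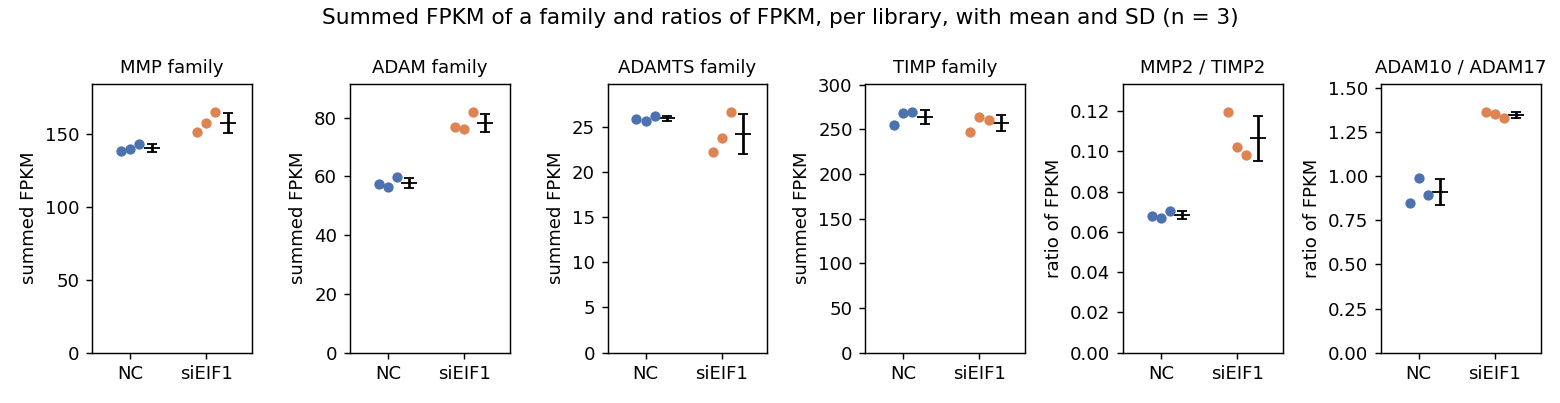
Summed FPKM of 4 families and the FPKM ratios of MMP2 to TIMP2 and of ADAM10 to ADAM17 (vertical, from 0) in each NC and siEIF1 library (points), with mean and SD of 3 libraries (black bars). The ADAM and MMP sums and both ratios are higher in every siEIF1 library, while the ADAMTS and TIMP sums overlap.

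The genes that act with these proteases were read from lists written by hand, with earlier results of these data known. The shares of the lists describe them and were not tested against other genes. Of 22 tested matrix proteins that MMPs or ADAMTS proteases cleave, 13 rose and 0 fell, which is 59.1% called against 20.6% of all tested genes. In DESeq2 12 rose and 0 fell after adjustment. At an unadjusted p under 0.05, 1 was lower in edgeR, CCN2, and 1 was lower in DESeq2. The 5 with the smallest p were COL4A1, a chain of basement membrane collagen (log2 fold change 0.50, standard error 0.046), FBN1, fibrillin-1 (0.66, standard error 0.080), THBS1, thrombospondin-1 (0.54, standard error 0.068), COL7A1, the collagen of anchoring fibrils (0.60, standard error 0.088) and COL6A1, a microfibrillar collagen (0.36, standard error 0.070). The count was 8 without siEIF1 replicate 2, a fit that called 13.2% of all tested genes. VCAN and BCAN, proteoglycan substrates of ADAMTS1, had mean counts of 2.67 and 7.0 and were not tested. The list is of substrates by name, and the levels say nothing of their cleavage.

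Of 16 tested partners that activate, bind or restrain MMPs, 7 rose and 3 fell, or 62.5% against 20.6% of all tested genes. SPOCK1, a matrix proteoglycan, had the smallest p and rose from 10.35 ± 0.497 to 17.7 ± 1.04 FPKM (SD, n = 3). CAV1, caveolin-1, rose with a fitted log2 change of 0.62 (standard error 0.056) and TFPI2, a secreted protease inhibitor, with 0.32 (standard error 0.064). PLAUR, the urokinase receptor, fell by 0.39 on the log2 scale (standard error 0.071). FURIN, which cleaves the propeptides of membrane-bound MMPs and ADAMs, had 16.4 FPKM in the NC and 17.3 in the siEIF1 libraries (edgeR adjusted p = 0.164).

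Of the 13 tested genes that mature or carry ADAM10 and ADAM17, 2 rose and 0 fell, or 15.4%, against 20.6% of all tested genes. At an unadjusted p under 0.05, 0 were lower in edgeR and 0 in DESeq2. RHBDF2, or iRhom2, which escorts ADAM17 to the cell surface, rose from 2.00 ± 0.159 to 2.50 ± 0.127 FPKM and TSPAN10, a tetraspanin partner of ADAM10, from 6.45 ± 0.648 to 8.33 ± 0.324 (SD, n = 3). The count was 1 without siEIF1 replicate 2, a fit that called 13.2% of all tested genes. Of 27 tested substrates of ADAM shedding, 6 rose and 0 fell in edgeR, or 22.2%, a share near the 20.6% of all tested genes. In DESeq2 also 6 rose and 0 fell after adjustment. At an unadjusted p under 0.05, 1 was lower in edgeR, PRNP, and 1 was lower in DESeq2. The 5 with the smallest p were ERBB4, MET, EFNB2, ALCAM and CD44, with ERBB4, a receptor of neuregulins, changed most (log2 fold change 0.53, standard error 0.084). The count was 2 without NC replicate 2 and 2 without NC replicate 3, fits that called 15.8% and 14% of all tested genes. Of 6 tested relatives, 2 rose in edgeR, or 33.3% called against 20.6% of all tested genes, and the other 4 had negative log2 fold changes. BMP1, the procollagen C-proteinase, rose with a fitted log2 change of 0.29 (standard error 0.061) and PAPLN, papilin, with 0.36 (standard error 0.078).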

How the data were processed

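RNA-seq of 3 NC and 3 siEIF1 libraries of ARPE-19 cells was used, with groups and replicate numbers taken from the sample titles. After adaptor trimming, the authors mapped reads with HISAT2 to GRCh38, and the deposited counts are uniquely mapped reads per gene that were not normalized. FPKM values, rounded to 2 decimals, were deposited as well. The counting program, its strand setting and the annotation release are not given in the sources used here, so counts of overlapping genes and of near-identical copies are uncertain. All columns were assigned to a library and 0 were left out.

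Counts were filtered with filterByExpr, scaled by TMM and tested on all genes by the quasi-likelihood method of edgeR 4.0.16 under R 4.3.3, with p-values adjusted after Benjamini and Hochberg. Standard errors come from the F statistic, and 95% intervals use the t distribution with the moderated degrees of freedom. Adjusted p-values under 0.05 were called. Tested on simulated counts for siEIF1 against NC with 16534 genes, edgeR recovered 98.5% of 200 genes changed 2-fold and called 12 unchanged genes. The changed genes were drawn only from genes above a floor on the mean count. Recovery of smaller changes and of genes with fewer counts was not simulated. DESeq2 1.42.0, limma 3.58.1 on log2(FPKM + 1) and log2(FPKM + 0.1), other filters and normalizations, a replicate block and leaving out each library were alternatives. Precision is set by 26499929 to 31431479 counts per library. Libraries of a group differed by more than sampling noise (chi-square over its degrees of freedom between 3.03 and 14.1). The study describes them as independent replicates.

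Positions are from GENCODE release 44, in which all 63 members were found, 55 with the same versioned identifier. Primers were matched to GRCh38. The members, the lists and the structural groups were chosen with earlier results of these data known. Named are members with an adjusted p under 0.05, the TIMPs, MMP24, the 3 most expressed of each family and up to 5 called genes per list. Others were named after their values were seen. Protein sequences were not used here. The values of 1 called gene of a list are not reported here.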

Additional observations from a re-analysis of the deposited data

How the results depend on the processing

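Of the log2 fold changes of 23 named genes under 14 alternative fits each, the directions of all called members held. The number of members that rose was between 8 and 13 and the number that fell between 3 and 5. The share of all tested genes called was between 11.8% and 25.5% in these fits. The number past the fold limit of 2 was 0 with limma on log2(FPKM + 1) and 1 with log2(FPKM + 0.1). It was between 1 and 3 with each library left out, the lowest without NC replicate 1 and without siEIF1 replicate 2. Without siEIF1 replicate 1 it was 3, but ADAMTS6 lay within the limit at -0.967 and another member passed it. Among all tested genes, 20 and 164 passed the limit with limma, and 235 to 327 with each library left out. A pseudocount shrinks the change of genes with low FPKM by construction. The median log2 fold change of the members was 0.13 with no filter on low counts, 0.039 and 0.146 with limma on log2(FPKM + 1) and log2(FPKM + 0.1), and between 0.131 and 0.243 with each library left out. With limma on the same 2 scales, 2 and 3 sheddase substrates and 8 and 8 matrix substrates were called, beside 15% and 15.2% of all tested genes. With each library left out, the counts were 2 to 7 sheddase substrates, 8 to 13 matrix substrates and 1 to 3 genes of ADAM10 and ADAM17 maturation. In those fits 13.2% to 20.5% of all tested genes were called.

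EIF1 (-3.61 to -3.55) and MMP24 (0.894 to 1.09) stayed called. With each library left out, TIMP1 ranged from -0.0318 to 0.0507, TIMP2 from -0.0324 to 0.0582 and TIMP4 from -0.383 to 0.00764. TIMP1, with no call in any fit, turned to -0.0129 and -0.013 with limma and to -0.0318 without siEIF1 replicate 2, and TIMP2 to -0.00997 and -0.0101 with limma, to -0.0324 without NC replicate 1 and to -0.0303 without siEIF1 replicate 2. TIMP4 was 0.00764 without siEIF1 replicate 1. The replicate numbers were not taken as pairs, since the deviations of same-numbered libraries correlated at 0.149, 0.0946 and 0.128. With the replicate block, 13 members rose and 5 fell, TIMP3 among them (log2 fold change -0.118, adjusted p = 0.0487, edgeR). That fit called 25.5% of all tested genes, against 20.6% without the block. The 19 members with 1 to 41 counts in all were too shallow to test.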
